A study of Rattus norvegicus with 6 samples.

Results

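Glutamate released at synapses is taken up again and recycled by a small set of transporters and enzymes, and 9 of their genes were followed in the amygdala of rats given ethanol. They were taken by symbol from the 38445 genes of each count file: the 3 plasma membrane glutamate transporters Slc1a1, Slc1a2 and Slc1a3, the 3 vesicular glutamate transporters Slc17a6, Slc17a7 and Slc17a8, the 2 glutamine transporters Slc38a1 and Slc38a2, and Glul, the only enzyme among them. The samples were whole amygdala of adult male Sprague Dawley rats, collected 1 h after an intraperitoneal injection of saline (Control) or of ethanol at 1 g/kg (Ethanol). Each group had 6 rats, and RNA of 2 rats was pooled into each library, which left 3 libraries per group. The study asked how gene expression in the amygdala changes at the time when an acute dose of ethanol relieves anxiety-like behavior. A pooled library averages over its rats and over every cell type in the tissue block.

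Astrocytes clear most synaptic glutamate through SLC1A2 (EAAT2) and SLC1A3 (EAAT1), glutamine synthetase (GLUL) converts it to glutamine, and neurons take the glutamine up and turn it back into glutamate. Vesicular transporters then load glutamate into synaptic vesicles, and the neurons of different brain regions use different ones: SLC17A7 (VGLUT1) is typical of neurons of the cortex, hippocampus and basolateral amygdala, SLC17A6 (VGLUT2) of the thalamus, hypothalamus and medial amygdala, and SLC17A8 (VGLUT3) of scattered neurons that mostly release another transmitter as well. The amygdala is therefore a place where both main vesicular forms are made next to each other.

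In these libraries, edgeR's test detected no difference between ethanol and control in any of the 9 genes, and each 95% interval of the change included 0. Slc38a1 was the only one whose groups did not overlap, with every Ethanol library slightly above every Control library. By a within-group SD pooled over both groups, the vesicular transporters Slc17a7 and Slc17a6 varied more than most genes of the tissue, and the glutamine transporter Slc38a1 varied less than most of them. The length-scaled level ran from Glul, at 602 CPM (a count scaled to the reads assigned in its library) per kilobase of exon, down to Slc17a8 at 1.48 (medians of the 6 libraries).

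The sequences just before the starts of 4 of these genes are shown because these pairs are close in function and differ in their values: Slc17a7 and Slc17a6 are the vesicular transporters that varied most between libraries, and Slc38a1 and Slc38a2 are the neighbouring glutamine transporters of which the first varied least. Each window holds the 250 bases before the annotated start in RefSeq, build GRCr8, read 5′ to 3′ on the strand of the gene. Capitals mark GGGCGG on either strand (the core of the GC box) and CANNTG (the E-box, which reads the same on both strands). The windows are chr1:104785955-104786204 on the plus strand for Slc17a7, chr1:110348197-110348446 on the plus strand for Slc17a6, chr7:129681402-129681651 on the minus strand for Slc38a1 and chr7:129742620-129742869 on the minus strand for Slc38a2.
Slc17a7: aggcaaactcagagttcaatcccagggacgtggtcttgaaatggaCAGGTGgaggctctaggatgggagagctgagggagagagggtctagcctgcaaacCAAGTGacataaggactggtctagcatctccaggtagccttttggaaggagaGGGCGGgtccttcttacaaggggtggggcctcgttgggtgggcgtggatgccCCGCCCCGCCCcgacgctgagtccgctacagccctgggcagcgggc
Slc17a6: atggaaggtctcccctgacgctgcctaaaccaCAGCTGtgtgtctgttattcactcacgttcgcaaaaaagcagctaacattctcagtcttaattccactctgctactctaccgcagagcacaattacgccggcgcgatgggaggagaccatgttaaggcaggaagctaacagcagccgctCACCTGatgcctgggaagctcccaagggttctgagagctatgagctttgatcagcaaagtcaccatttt
Slc38a1: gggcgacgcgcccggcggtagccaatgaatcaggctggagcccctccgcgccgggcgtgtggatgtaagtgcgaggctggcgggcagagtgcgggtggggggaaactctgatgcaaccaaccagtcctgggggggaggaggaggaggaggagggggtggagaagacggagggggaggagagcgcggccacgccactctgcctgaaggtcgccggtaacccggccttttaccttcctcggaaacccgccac
Slc38a2: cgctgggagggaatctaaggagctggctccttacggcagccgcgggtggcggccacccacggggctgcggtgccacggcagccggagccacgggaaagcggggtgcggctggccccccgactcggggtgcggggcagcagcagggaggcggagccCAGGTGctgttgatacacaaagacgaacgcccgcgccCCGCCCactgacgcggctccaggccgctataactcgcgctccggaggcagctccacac

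The upstream window of Slc17a7 had a GC content of 61.2% and held 3 matches of GGGCGG, of which the pair on the opposite strand shares a base, and 2 of CANNTG. The window of Slc17a6 had a GC content of 50.8%, no GGGCGG and 2 matches of CANNTG. Both glutamine transporters had GC-rich windows, with 68.4% in Slc38a1 and 72.4% in Slc38a2, and 21 and 27 CG dinucleotides. Slc38a1 held neither capitalised motif, and Slc38a2 held 1 of each. The cyclic AMP-response half-site TGACG, searched on both strands and not capitalised, occurred once in Slc17a6 and once in Slc38a2, and TATAAA occurred in none of the 4 windows. Among all 33465 RefSeq windows of the same length, the median GC content was 51.2% with a median of 5 CG dinucleotides, and GGGCGG was present in 30.5%, CANNTG in 65.5%, TGACG in 18.2% and TATAAA in 12.9%. These matches describe the letters only, and no chromatin or binding data were used here. A RefSeq window was matched for 8 of the 9 genes, and not for Slc1a1.

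The reads assigned to genes numbered 62576504 to 70755739 per library. The markers of an amygdala dissection were present in each library: the 9 markers of pallial glutamatergic neurons summed to between 1612 and 2274 CPM and the 9 of striatal-type GABA neurons to between 463 and 647 CPM. The libraries differed in the markers of neighbouring tissue. Ethanol 3 had 207 CPM of the lateral hypothalamic peptide gene Pmch, against 2.12 to 14.5 CPM in the others. The 10 choroid plexus markers summed to 528 to 1142 CPM in the Control libraries and to 14.1, 15.1 and 489 CPM in the Ethanol libraries, with 5 of 9 tested markers lower at an unadjusted p below 0.05 from edgeR's quasi-likelihood test, and Otx2 was at or near 0 throughout. The sums of the other lists overlapped between the groups: 309 to 373 CPM for microglia, 169 to 192 CPM for endothelium, 62.8 to 81.8 CPM for thalamic neurons and 0.239 to 1.71 CPM for serotonergic neurons. The part of tissue makeup in the values of the 9 genes was not tested.

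Across the whole table, 0 of 18141 tested genes (0.0%) passed the study's threshold of 0.2 on the adjusted p (edgeR's quasi-likelihood test, Benjamini-Hochberg over all genes), and no adjusted p was under 0.807. The study's own analysis of its RNA-seq, which was not repeated here, did report genes that passed this threshold. It also measured several of them by qPCR. An unadjusted p below 0.05 was found for 763 genes (4.21%), with 289 higher (1.59%) and 474 lower (2.61%) after ethanol, and DESeq2 called 74 genes at the adjusted threshold. The 3 Ethanol libraries lay wholly above the 3 Control libraries in 3.65% of genes and wholly below them in 5.19%, which makes 8.85% in either direction. Against this background, all 9 genes of the glutamate group passed the filter on low counts, 0 were called, 0 had an unadjusted p below 0.05, and 1, Slc38a1, had groups that did not overlap. Their unadjusted p ranged from 0.233 to 0.88, and the adjusted p was 1.0 for each of them. The fitted log2 fold change was above 0 in 7 of the 9 (6 with library size alone in place of TMM), with a median of 0.069, against a median of 0.0068 over all genes tested. Regardless of direction, the median size of the log2 fold change was 0.053 in the 11902 genes at 5 CPM or more. The share of all genes above 0 was not counted, so this count and those of the lists below are descriptions. In bulk tissue, fewer cells of a type and less RNA per cell cannot be told apart, and this holds for every value given here.

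**Figure D1:**
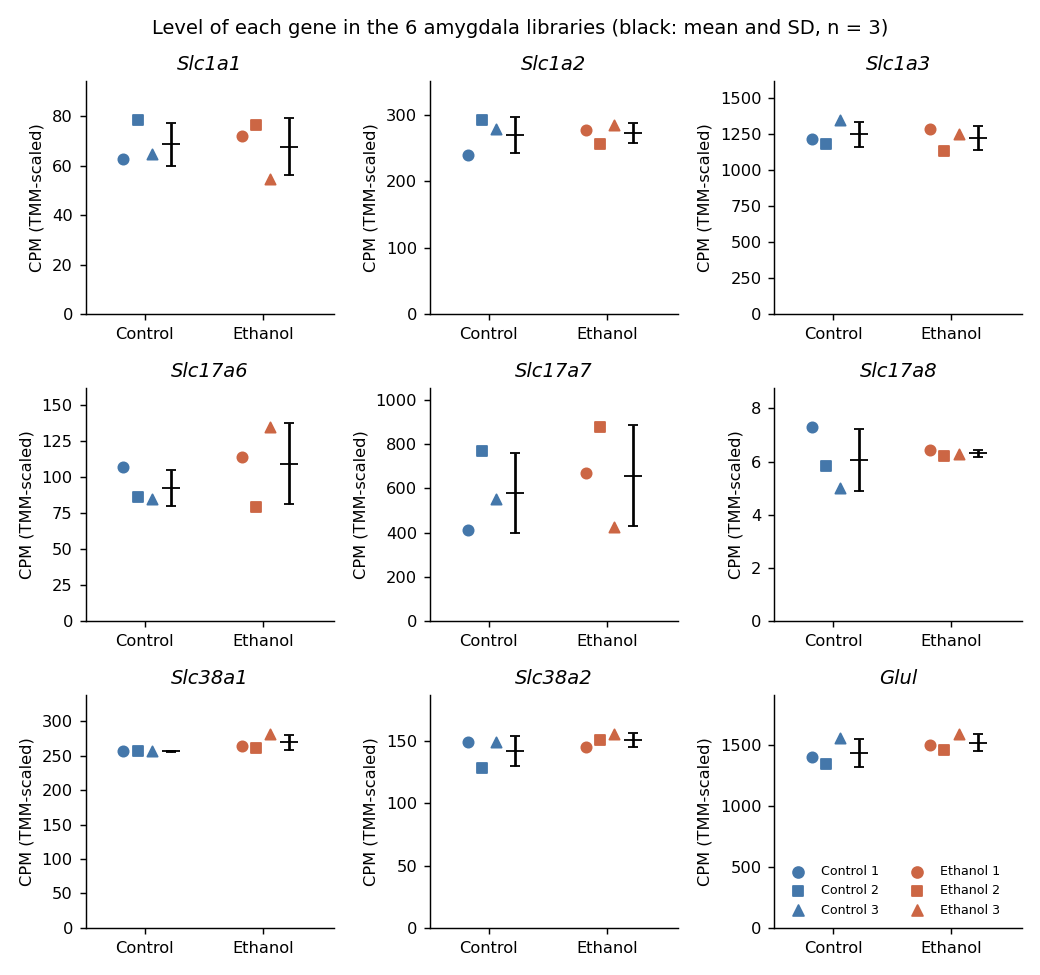
Each panel plots 1 gene, with the level in CPM scaled by TMM on the vertical axis from 0, the 3 Control and 3 Ethanol libraries as coloured symbols by replicate number, and the group mean and SD in black (n = 3). Slc38a1 is the only panel in which the groups do not overlap (256 to 257 CPM against 261 to 282 CPM), and the libraries of both groups spread widely in the panel of Slc17a7.

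The astrocytic transporters came first among the uptake genes. Slc1a3 (NCBI gene 29483, Rnor_6.0 chr2:57860881-57935363, minus strand, 11 exonic blocks), which encodes EAAT1 of astrocytes and radial glia, had 1214, 1177 and 1345 CPM in the Control libraries and 1280.3, 1127 and 1249 CPM in the Ethanol libraries. The highest value was a Control library and the lowest an Ethanol library, and the groups overlapped. Its log2 fold change from edgeR was -0.03 (SE 0.10, 95% interval from -0.26 to 0.20, unadjusted p = 0.764, 2-sided exact permutation p = 0.8). The means were 1245 ± 88.3 CPM (SD, n = 3) for Control and 1219 ± 81 CPM (SD, n = 3) for Ethanol, so that the interval of the change ran from -16.7% to 14.9%. The log2 fold change turned to 0.03 without Control 3 and to 0.02 without Ethanol 2.

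Slc1a2 (NCBI gene 29482, Rnor_6.0 chr3:92518679-92665731, plus strand), which encodes EAAT2, the transporter that carries most glutamate uptake in the forebrain, had 239.5, 292 and 278 CPM in the Control libraries and 277, 256 and 285 CPM in the Ethanol libraries. Control 1 was lowest and Control 2 highest, with all Ethanol libraries in between. With edgeR, the log2 fold change was 0.02 (SE 0.09, 95% interval from -0.19 to 0.22, unadjusted p = 0.85, 2-sided exact permutation p = 0.9). The group means were 269.6 ± 26.9 CPM (SD, n = 3) for Control and 273 ± 15 CPM (SD, n = 3) for Ethanol. This fold change turned to -0.01 on the log2 scale with library size alone in place of TMM, to -0.07 without Control 1 and to -0.02 without Ethanol 3. The gene model counted in Rnor_6.0 is fragmented: of its 25 exonic blocks, 19 have 20 bases or fewer and cover 162 bases together, and the other 6 cover 1523 bases. Such a model was rare, with most blocks that short in 28 of 7901 tested genes of at least 10 blocks (0.354%). The comparison between groups uses the same model in every library, whereas the level of Slc1a2 relative to other genes is uncertain.

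Slc1a1 (NCBI gene 25550, Rnor_6.0 chr1:246955017-247035159, plus strand, 12 exonic blocks) encodes EAAT3, the glutamate and cysteine transporter of neurons. It had 62.5, 78.4 and 64.7 CPM in the Control libraries and 71.8, 76.3 and 54.5 CPM in the Ethanol libraries. Ethanol 3 was the lowest of the 6 and Control 2 the highest, and the groups overlapped. The fitted log2 fold change from edgeR was -0.02 (SE 0.14, 95% interval from -0.34 to 0.30, unadjusted p = 0.88, 2-sided exact permutation p = 0.9). Mean levels were 68.5 ± 8.6 CPM (SD, n = 3) for Control and 67.5 ± 11.5 CPM (SD, n = 3) for Ethanol. This fold change turned to 0.09 on the log2 scale without Control 2 and to 0.11 without Ethanol 3.

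The balance between the uptake transporters was compared as the share of each in their summed length-scaled level. Slc1a2 made up 29.4%, 33.7% and 30.5% of that sum among the Control libraries, against 31.2%, 31.8% and 32.9% among the Ethanol libraries. The means were 31.2% ± 2.22 (SD, n = 3) and 31.9% ± 0.874 (SD, n = 3), and the difference of 0.734 percentage points was within the spread between libraries (2-sided exact permutation test, p = 0.7, where 3 libraries against 3 cannot give a p under 0.1). Without Control 1 the difference was -0.163 percentage points. Slc1a3 took most of the sum, 61.4% in controls and 60.7% after ethanol, and Slc1a1 took 7.42% and 7.41%. Because the model of Slc1a2 is fragmented, these shares serve for comparing libraries and not as proportions of transcripts.

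The 10 astrocyte markers summed to 5882, 5326 and 6687 CPM in the Control libraries and to 5522, 5625 and 7894 CPM in the Ethanol libraries, with 0 called, 8 above 0 and a median log2 fold change of 0.06. Their leading genes were S100b and Aqp4, the astrocytic water channel, with log2 fold changes of 0.07 for both. The astrocyte transcription factor Sox9 was the list's only gene with an unadjusted p below 0.05, at 42.8, 43.8 and 51.9 CPM against 40.2, 30.3 and 32 CPM (log2 fold change -0.43, edgeR adjusted p = 0.999). Ethanol 3 held the highest astrocyte sum and the highest Glul of the 6 libraries (1597 CPM), while its Slc1a2 was next to the highest (285 against 292 CPM) and its Slc1a3 lay in the middle (1249 CPM). The part of astrocyte content in these levels was not tested.

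Glul (NCBI gene 24957, Rnor_6.0 chr13:71331052-71340207, plus strand, 7 exonic blocks) encodes glutamine synthetase, the enzyme of astrocytes and of many oligodendrocytes that joins ammonia to glutamate. It had 1403, 1345 and 1562 CPM in the Control libraries and 1499, 1464 and 1597 CPM in the Ethanol libraries. Control 2 was lowest and Ethanol 3 highest, and Control 3 lay above 2 of the Ethanol libraries, so the groups overlapped. Its log2 fold change from edgeR was 0.08 (SE 0.10, 95% interval from -0.15 to 0.32, unadjusted p = 0.446, 2-sided exact permutation p = 0.3). The group means were 1437 ± 113 CPM (SD, n = 3) for Control and 1520.2 ± 68.6 CPM (SD, n = 3) for Ethanol, and the interval of the change ran from -10.1% to 24.6%. The lowest and highest library were also those of the 9 oligodendrocyte markers, Mbp among them, which summed to 8857, 3794 and 6204 CPM in the Control libraries and to 4634, 6404 and 10228 CPM in the Ethanol libraries. The libraries in between came in another order: Control 1 had the next highest sum after Ethanol 3 and the next lowest Glul after Control 2. Whether the oligodendrocyte content contributed to the level of Glul was not tested.

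Glul is a textbook target of glucocorticoid hormones in several tissues. The 10 glucocorticoid-response genes summed to 422, 452 and 404 CPM in the Control libraries and to 497, 629.7 and 604 CPM in the Ethanol libraries, and the groups did not overlap. This list was chosen with earlier results of these data known, so its counts are a description and not a test. None of the 10 genes was called. An unadjusted p below 0.05 (edgeR) was found for 8 of the 10, each in the higher direction, against 1.59% of all genes tested. The median log2 fold change of the 10 genes was 0.40. Sgk1, a kinase that regulates ion transport, was the most abundant of them, at 69.6, 65.8 and 64.3 CPM against 74.7, 130.3 and 120.3 CPM (log2 fold change 0.70, edgeR adjusted p = 0.943). Tsc22d3, which encodes the glucocorticoid-induced leucine zipper, came next, at 80.2, 70.3 and 74.8 CPM against 84.2, 103 and 109 CPM (log2 fold change 0.39, edgeR adjusted p = 0.915). The other 6 were Klf9, Dusp1, Fkbp5, Per1, Nfkbia and Pdk4, with log2 fold changes of 0.50, 0.42, 0.34, 0.31, 0.33 and 0.99. Glul itself was higher in the Ethanol mean by 5.82%, which was within the spread between libraries.

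The vesicular transporters Slc17a7 and Slc17a6 had the widest spread of the group. Slc17a7 (NCBI gene 116638, Rnor_6.0 chr1:101161265-101172292, plus strand, 12 exonic blocks), which encodes VGLUT1, had 413, 770.3 and 554 CPM in the Control libraries and 668, 879 and 425 CPM in the Ethanol libraries. Each group held a low and a high library, and the highest library exceeded the lowest by 2.13-fold over both groups, by 1.86-fold within the controls and by 2.07-fold within the Ethanol group. With edgeR, the log2 fold change was 0.18 (SE 0.29, 95% interval from -0.49 to 0.86, unadjusted p = 0.55, 2-sided exact permutation p = 0.7). Mean levels were 579 ± 179.8 CPM (SD, n = 3) for Control and 657 ± 227 CPM (SD, n = 3) for Ethanol. This fold change turned to -0.02 on the log2 scale without Control 1 and to -0.08 without Ethanol 2. The interval of the change ran from -29.0% to 81.3%, so a change of moderate size was not detectable in this design.

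Slc17a6 (NCBI gene 84487, Rnor_6.0 chr1:106980463-107038717, plus strand, 14 exonic blocks), which encodes VGLUT2, had 107, 85.9 and 84.5 CPM in the Control libraries and 114, 79.2 and 135 CPM in the Ethanol libraries. Ethanol 3 and Ethanol 1 were the highest of the 6 and Ethanol 2 was the lowest, so the groups overlapped. The log2 fold change, 0.24 (SE 0.19, 95% interval from -0.19 to 0.67, unadjusted p = 0.233 from edgeR, 2-sided exact permutation p = 0.6), was the largest of the 9 genes. The group means were 92.6 ± 12.8 CPM (SD, n = 3) for Control and 109 ± 28.0 CPM (SD, n = 3) for Ethanol. When single libraries were left out, the fold change lay between 0.06 and 0.43 on the log2 scale, and 0.43 was reached without Ethanol 2 (edgeR unadjusted p = 0.0119, adjusted p = 1.0).

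Slc17a8 (NCBI gene 266767, Rnor_6.0 chr7:30215231-30274993, minus strand, 13 exonic blocks) encodes VGLUT3 and was the least abundant of the group. It had 7.31, 5.84 and 5.02 CPM in the Control libraries and 6.44, 6.19 and 6.29 CPM in the Ethanol libraries, on 318 to 478 counts per library. The Control libraries held both the highest and the lowest value, with the Ethanol libraries close together between them. The fitted log2 fold change from edgeR was 0.06 (SE 0.14, 95% interval from -0.27 to 0.39, unadjusted p = 0.699, 2-sided exact permutation p = 0.7). Mean levels were 6.06 ± 1.16 CPM (SD, n = 3) for Control and 6.30 ± 0.125 CPM (SD, n = 3) for Ethanol. Without Control 3, the fold change was -0.06 on the log2 scale.

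**Figure D2:**
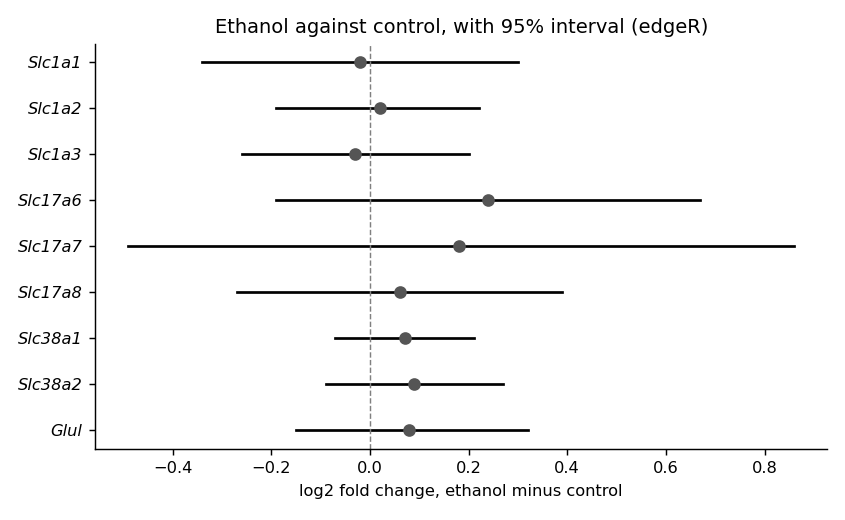
Points give the log2 fold change of each gene (ethanol minus control, horizontal axis) from edgeR, with lines for the 95% interval over 3 libraries per group and a dashed line at 0. Each of the 9 intervals includes 0, and the widest is that of Slc17a7, from -0.49 to 0.86.

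Per kilobase of exon, Slc17a7 exceeded Slc17a6 in every library, but by a ratio that differed from library to library. The ratio was 9.93, 23.1 and 16.9 among the Control libraries, against 15.1, 28.6 and 8.15 among the Ethanol libraries. Each group held a low and a high ratio, and the order of the libraries did not follow the treatment. Expressed as a share of the summed vesicular transporter level, Slc17a6 made up 9.08%, 4.13% and 5.56% among the Control libraries, against 6.19%, 3.36% and 10.9% among the Ethanol libraries. The means were 6.26% ± 2.55 (SD, n = 3) and 6.81% ± 3.79 (SD, n = 3), a difference of 0.548 percentage points (2-sided exact permutation test, p = 0.9), which turned to -0.514 without Control 2 and to -1.48 without Ethanol 3. Slc17a7 took between 88.5% and 96.3% of the sum and Slc17a8 between 0.323% and 0.76%.

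The levels of the vesicular transporters were set beside neuronal markers of the regions in which each is known to be used. The pallial glutamatergic markers summed to 1612, 1996 and 1798 CPM in the Control libraries and to 2047, 2274 and 1639 CPM in the Ethanol libraries. From Ethanol 2 at the top to Control 1 at the bottom, this is the order of the Slc17a7 level, apart from Control 2 and Ethanol 1, which change places. The neuronal uptake gene Slc1a1 was likewise lowest in Ethanol 3 and Control 1 and highest in Control 2 and Ethanol 2. Among these markers, 0 of 9 were called, 8 had a log2 fold change above 0, and the median was 0.10. The postsynaptic calmodulin-binding gene Nrgn and the kinase gene Camk2a led the list and made up most of the sum, with log2 fold changes of 0.10 and 0.16. With equal weight for each marker, as the mean of log2 CPM centred per gene, Ethanol 2 was again highest (0.49). By this measure Ethanol 3 (-0.49), not Control 1 (-0.26), was lowest. Tbr1, a transcription factor of pallial projection neurons, was the only one with an unadjusted p below 0.05, at 15.1, 13.7 and 14.9 CPM against 22.8, 21 and 20 CPM (log2 fold change 0.55, edgeR adjusted p = 0.807).

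The 11 hypothalamic and medial amygdalar markers summed to 141, 48.3 and 124 CPM in the Control libraries and to 59.1, 42.5 and 373 CPM in the Ethanol libraries. Ethanol 3 had the highest and Ethanol 2 the lowest value of both this sum and Slc17a6, and the libraries in between came in another order. With equal weight for each of the 10 tested markers, as the mean of log2 CPM centred per gene, Ethanol 3 was again highest (1.62). By this measure Control 2 (-0.92) and Ethanol 2 (-0.91) were nearly level as the lowest. The peptide genes Pmch and Avp were the most abundant of the list and weighed most in the sum. Pmch had 5.98, 2.49 and 14.5 CPM in the Control libraries and 2.12, 2.47 and 207 CPM in the Ethanol libraries, and Avp had 60.3, 2.84 and 45.6 CPM against 12.5, 5.44 and 69.1 CPM. Neither gene was called, and 0 of the 10 tested markers had an unadjusted p below 0.05. The 5 thalamic neuron markers, of another region that uses Slc17a6, summed to 81.8, 64.5 and 62.8 CPM against 69.3, 67.1 and 63.3 CPM. Ethanol 3, highest in Slc17a6, was next to lowest in this sum. With equal weight for each thalamic marker it was next to highest (0.22), after Control 1 (0.64). Ntng1 and Tcf7l2 led the thalamic list, with log2 fold changes of -0.04 and -0.23. The contribution of these cell types to the levels of Slc17a7 and Slc17a6 was not tested.

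**Figure D3:**
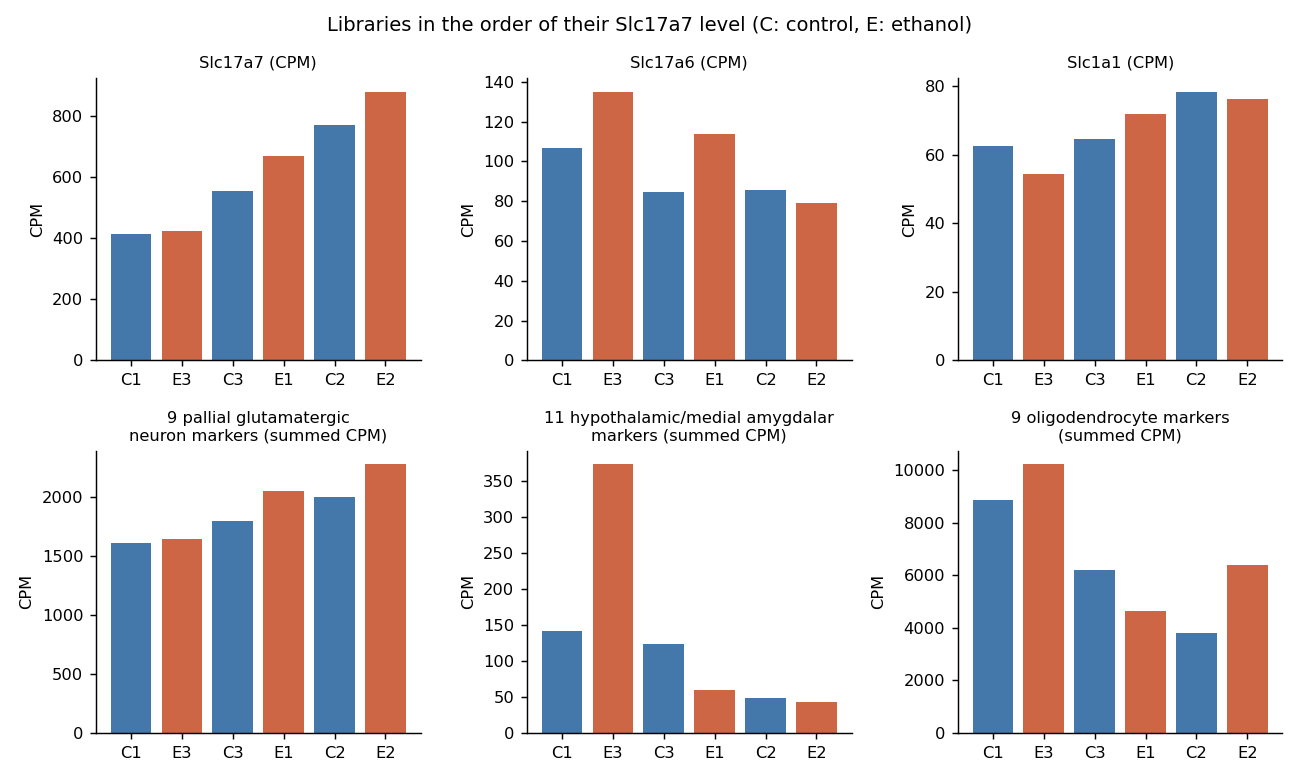
Bars give the CPM of Slc17a7, Slc17a6 and Slc1a1 (upper row) and the summed CPM of pallial, hypothalamic and medial amygdalar, and oligodendrocyte markers (lower row) in the 6 libraries, ordered in every panel by the Slc17a7 level, with Control in blue and Ethanol in orange. The pallial sum climbs from 1612 CPM in Control 1 to 2274 CPM in Ethanol 2 along nearly the same order. Control 1 and Ethanol 3, which hold the least Slc17a7, hold the most oligodendrocyte markers (8857 and 10228 CPM). The other libraries do not continue this: Ethanol 2, with the most Slc17a7, has 6404 CPM of these markers. That is above Control 3 (6204 CPM), Ethanol 1 (4634 CPM) and Control 2 (3794 CPM).

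The glutamine transporters included Slc38a1, the steadiest of the 9 genes by the within-group SD pooled over both groups. Its highest library exceeded its lowest by 1.01-fold within the controls and by 1.08-fold within the Ethanol group. In the Ethanol group, Slc17a8 (1.04-fold) and Slc38a2 (1.07-fold) varied less. Slc38a1 (NCBI gene 170567, Rnor_6.0 chr7:137970555-138040098, minus strand, 19 exonic blocks) encodes SNAT1, a sodium-coupled glutamine carrier of neurons. It had 257, 256 and 256 CPM in the Control libraries and 264, 261 and 282 CPM in the Ethanol libraries. Every Ethanol library lay above every Control library, as in 3.65% of all genes tested, and Ethanol 3 stood above the other Ethanol libraries. Its log2 fold change was 0.07 (SE 0.06, 95% interval from -0.07 to 0.21, unadjusted p = 0.282 from edgeR, and 2-sided exact permutation p = 0.1, the smallest that 3 libraries against 3 allow). The group means were 256 ± 0.768 CPM (SD, n = 3) and 269 ± 11.4 CPM (SD, n = 3), a difference of 4.92% with an interval from -4.73% to 15.6%. edgeR's test estimates the spread with the help of the other genes, and it did not detect a difference.

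Slc38a2 (NCBI gene 29642, Rnor_6.0 chr7:138088654-138100869, minus strand, 15 exonic blocks) encodes SNAT2, a widely used amino acid carrier that cells are known to induce when amino acids are short. It lies 48.6 kb from Slc38a1 on the same strand. It had 149, 128 and 149 CPM in the Control libraries and 145, 151 and 156 CPM in the Ethanol libraries. Control 2 was the lowest library, and the groups overlapped. The fitted log2 fold change from edgeR was 0.09 (SE 0.08, 95% interval from -0.09 to 0.27, unadjusted p = 0.277, 2-sided exact permutation p = 0.4). Mean levels were 142 ± 12.4 CPM (SD, n = 3) for Control and 151 ± 5.44 CPM (SD, n = 3) for Ethanol. When single libraries were left out, the fold change stayed between 0.02 and 0.13 on the log2 scale.

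Within the summed length-scaled level of this pair, Slc38a2 made up 55.6%, 51.9% and 55.7% among the Control libraries, against 54.3%, 55.6% and 54.4% among the Ethanol libraries. The means of 54.4% ± 2.17 (SD, n = 3) and 54.8% ± 0.728 (SD, n = 3) differed by 0.415 percentage points (2-sided exact permutation test, p = 0.9). The difference turned to -0.835 without Control 2 and to -0.00275 without Ethanol 2. The amino acid response genes, which cells induce when amino acids are short, gave sums of 868, 829.6 and 883 CPM in the Control libraries and 855, 868 and 961 CPM in the Ethanol libraries. Of the 10 tested, 0 were called and 0 had an unadjusted p below 0.05, and their median log2 fold change was 0.05. The leading genes were the alanyl-tRNA synthetase gene Aars1 and the transcription factor gene Atf4, with log2 fold changes of 0.03 for both.

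Scaled by exon length, the order of the levels was led by Glul, with a median of 602 CPM per kilobase (546 to 648 over the 6 libraries), or 1.94 times the median of Slc1a3. Slc1a3 (311, from 285 to 339.6) and Slc17a7 (304, from 206 to 438) did not differ beyond their spread, and each was the higher one in 3 of the 6 libraries. Slc1a2 followed at 165 (142 to 173), with the reservation on its gene model. A group of 4 genes came next, with ranges that overlapped from neighbour to neighbour: Slc1a1 at 37.8 (30.2 to 43.4), Slc38a2 at 31.4 (26.8 to 32.9), Slc38a1 at 25.3 (24.9 to 27.5) and Slc17a6 at 18.7 (15.3 to 26.0). Within the same library, Slc1a1 was above Slc38a2 in 5 of 6, and Slc38a2 above Slc38a1 and Slc38a1 above Slc17a6 in 6 of 6. This order depends on the counted exon length, 1.805 kb for Slc1a1, 4.751 kb for Slc38a2 and 10.255 kb for Slc38a1. In CPM without length scaling, Slc38a1 was above Slc38a2 and Slc38a2 above Slc1a1 in every library. Slc17a8, at 1.48 (1.19 to 1.74), was below all others in every library.

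**Figure D4:**
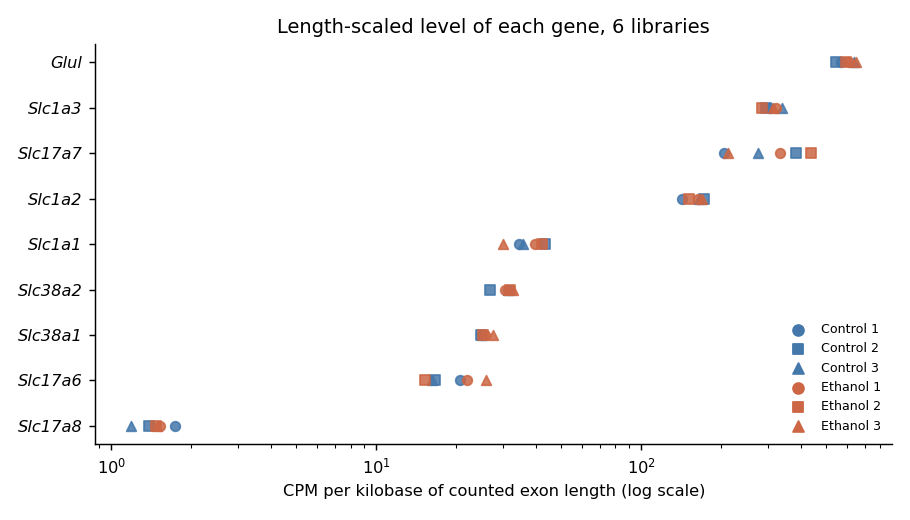
The horizontal axis, on a log scale, gives the level in CPM per kilobase of counted exon length, with 1 row per gene and 1 symbol per library (blue for Control, orange for Ethanol, shape for the replicate number). Glul leads at 546 to 648, Slc17a8 is last at 1.19 to 1.74, and the symbols of Slc17a7 spread from 206 to 438 across the position of Slc1a3.

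The members differed widely in their spread between libraries of the same group. This spread was measured as the SD of log2 CPM within the groups, pooled over both groups. It was placed among the 11902 genes with a mean of at least 5 CPM, whose median SD was 0.0997. Slc17a7 had an SD of 0.491, at the 98.8 percentile, and Slc17a6 one of 0.308, at the 95.3 percentile. Slc1a1 and Slc17a8 came next, with 0.221 (89.2 percentile) and 0.193 (85.1 percentile). The astrocytic genes lay near the middle: Slc1a2 had 0.119 (61.7 percentile), Slc1a3 0.0992 (49.6 percentile) and Glul 0.091 (43.8 percentile). Slc38a2 had 0.0988 (49.3 percentile), and Slc38a1 had 0.043, at the 7.27 percentile. In this measure 4 of the 9 genes were below the median of all genes.

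**Figure D5:**
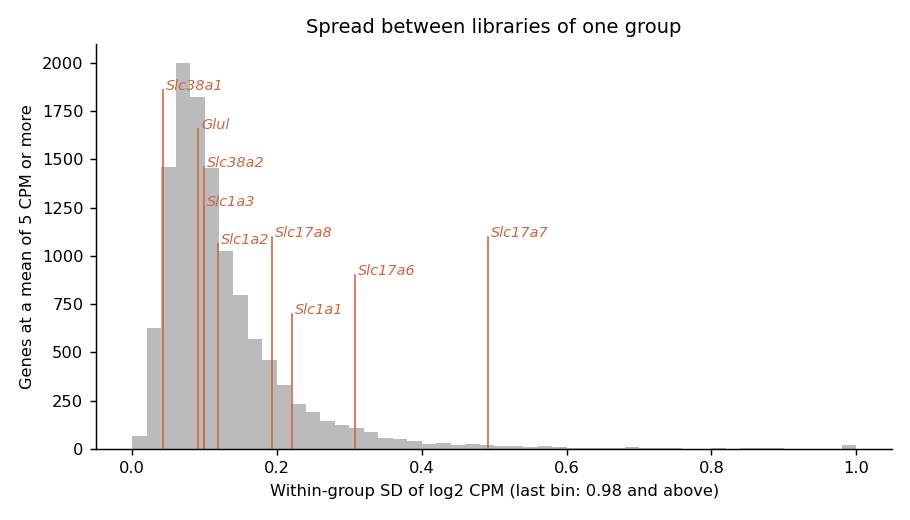
Grey bars count the genes with a mean of at least 5 CPM (vertical axis) by their within-group SD of log2 CPM (horizontal axis, the last bin holding all higher values), and orange lines mark the 9 genes. Slc38a1 sits at the low edge (0.043), the astrocytic genes and Slc38a2 sit around the median of 0.0997, and Slc17a6 (0.308) and Slc17a7 (0.491) sit in the upper tail.

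For each member, the genes whose level ran most alike over the 6 libraries were named by Pearson's r of log2 CPM, among 10268 genes with a symbol and a mean of at least 10 CPM. The values rest on 6 libraries that differ in tissue makeup, and they are given as a description. Among 10268 candidates and over only 6 libraries, unrelated genes can also reach a high r. How many would exceed 0.95 by chance was not tested, so a named pair is not evidence of shared regulation. For Slc17a7 the closest were Cmtm4 (r = 0.9978) and Ildr2 (r = 0.9959), and 274 genes exceeded 0.95. For Slc1a1 they were the adhesion gene Cadm1 (r = 0.9971) and the kainate receptor gene Grik2 (r = 0.9966), and 261 genes exceeded 0.95. The other members had between 5 and 22 genes above 0.95. The closest were Nabp2 (r = 0.9917) and Abcb10 (r = 0.985) for Slc17a6, and Alk (r = 0.9963) and Rab27b (r = 0.983) for Slc17a8. They were Dgkd (r = 0.9963) and Nlrx1 (r = 0.976) for Slc1a2, and Nckap1l (r = 0.987) and Dnase1l1 (r = 0.98) for Slc1a3. For Slc38a1 they were Sap30l (r = 0.984) and Rtn2 (r = 0.974), for Slc38a2 Aven (r = 0.98) and Gca (r = 0.974), and for Glul P4hb (r = 0.98) and Tmem51 (r = 0.971). No member was among the closest genes of another.

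The wider pathway was covered by 32 further genes of glutamate and glutamine transport and metabolism, of which 30 passed the filter on low counts. None was called and 0 had an unadjusted p below 0.05 with all 6 libraries, against 4.21% of all genes. The log2 fold change was above 0 in 21 and below 0 in 9, with a median of 0.03, but with library size alone in place of TMM the split was 16 to 14. The values ran from -0.49 for Slc38a4 to 0.20 for Slc25a13. Slc1a7 was near 0, and Aldh18a1 had no count in any library, where 3 counts correspond to 0.0424 to 0.0479 CPM. Multimapping reads and reads shared by several genes were not counted, and whether this or the gene model affected Aldh18a1 was not tested. Its 0 is therefore not taken as absence of the transcript.

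The abundant genes of this list included enzymes of glutamate breakdown and synthesis. Glud1, the mitochondrial glutamate dehydrogenase, had 699, 666 and 799 CPM in the Control libraries and 667, 634 and 819 CPM in the Ethanol libraries (log2 fold change -0.03, SE 0.12). The groups overlapped. The aspartate aminotransferases Got1 and Got2 each had a log2 fold change of 0.06 (SE 0.08 and 0.09). Slc3a2 encodes the heavy chain of several amino acid exchangers, and its levels were 131, 144 and 148 CPM against 147, 166 and 159.6 CPM (log2 fold change 0.16, SE 0.07, edgeR unadjusted p = 0.0598). The single gene of the list whose groups did not overlap, named after its values were seen, was the amino acid transporter Slc38a6, at 6.91, 7.72 and 6.69 CPM against 6.48, 6.03 and 6.13 CPM (log2 fold change -0.19, edgeR adjusted p = 1.0).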

How the data were processed

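Strand-specific single-end RNA-seq reads of 100 nt, from polyadenylated RNA of the 6 pooled libraries, were sequenced over 3 lanes. The submitters' processing notes name STAR 2.7.0f and Subread 1.6.3, and the authors deposited raw counts per gene, made per the file headers with featureCounts 1.6.3 (strand setting 2) over the exons of the Rnor_6.0 annotation. Multimapping reads and reads shared by several genes were left out of the counts. No exon of the 9 genes overlapped another gene on either strand. Symbols were matched to 29322 of 38445 gene identifiers through a RefSeq gene table.

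Counts were filtered with filterByExpr (18141 genes), scaled by TMM and compared in R 4.3.3 with edgeR 4.0.16 by the quasi-likelihood F test. The p-values were adjusted by the Benjamini-Hochberg method over the 18141 genes, with the study's threshold of 0.2. The SE of a log2 fold change was derived as |log2 fold change|/√F. CPM are scaled by TMM, log2 CPM carries a prior count of 2, and levels of different genes are compared per kilobase of counted exon length. Shares and single values were tested by 2-sided exact permutation over 20 label swaps. The code was tested on simulated data with 200 changed genes.

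The named genes were all 9 members, the 5 most abundant genes of the pathway list and any with an unadjusted p below 0.05, the 2 genes most like each member, and of each marker list set beside a member the 2 most abundant genes and those with an unadjusted p below 0.05. The choroid plexus list was kept to its sums, and some genes that the rule names are not reported here. Members and lists were chosen with earlier results of these data known. At 62576504 to 70755739 assigned reads per library, 3 counts correspond to 0.0424 to 0.0479 CPM, which covers counting error only. Other normalizations, filters, tests (DESeq2 1.42.0, limma 3.58.1) and fits without 1 library were tried. The chromatin accessibility and other experiments of the study were not analysed here.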

Additional observations from a re-analysis of the deposited data

How the results depend on the processing

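In each of the 14 fits, 0 of the 9 glutamate genes and 0 of the tested pathway genes (30, or 31 with no low-count filter) were called, and the smallest adjusted p of a member in any fit was 0.65. An unadjusted p below 0.05 was seen for 1 member, Slc17a6 without Ethanol 2, and for 2 pathway genes with the replicate block, 3 without Ethanol 3, 1 without Ethanol 1 and 1 without Ethanol 2. Over all genes, DESeq2 called 74 (29 higher, 45 lower) and edgeR's likelihood ratio test 77 (25 higher, 52 lower), and leaving out 1 library gave 0 to 82, with 82 without Ethanol 3 and 4 without Ethanol 1. The cause was not tested. Of 63 fold changes of members under the 7 alternatives with all libraries, 62 kept their direction, and Slc1a2 turned to -0.01 with library size alone, which moved the median of all genes to -0.02.

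Without 1 library at a time, the difference in share lay between -1.48 and 2.27 percentage points for Slc17a6, -0.163 and 1.98 for Slc1a2 and -0.835 and 1.07 for Slc38a2. The log2 fold change lay between -0.12 and 0.11 for Slc1a1, -0.07 and 0.08 for Slc1a2, -0.07 and 0.03 for Slc1a3, -0.08 and 0.44 for Slc17a7 and -0.06 and 0.21 for Slc17a8, so these 5 changed sign. It stayed above 0 for Slc17a6 (0.06 to 0.43), Slc38a1 (0.03 to 0.09), Slc38a2 (0.02 to 0.13) and Glul (0.04 to 0.15).

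Libraries of both groups carry the numbers 1 to 3 but come from different rats, so the numbers were not taken as pairs. Deviations from the group means correlated by 0.0264, 0.388 and 0.211 for the 3 numbers over 14241 genes. Between libraries of unlike number the correlations ran from -0.427 to 0.305. Whether libraries of the same number were processed together was not tested. With the replicate number as a block, 0 genes were called with edgeR's quasi-likelihood test (smallest adjusted p 0.463), and 1030 had an unadjusted p below 0.05. The 3 share differences, 0.548, 0.734 and 0.415 percentage points, cannot change with this block. The mean of the differences within each number equals the difference of the group means. Control 1 correlated with Ethanol 3 (0.305) more than with Ethanol 1. The precision is limited by the 3 pooled libraries per group.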
